A study of Homo sapiens with 16 samples.

Results

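The FOS and JUN family of transcription factors was followed across every library of the series. Its 7 genes were taken by symbol from the expression matrix: FOS, FOSB, FOSL1 and FOSL2 of the Fos subfamily and JUN, JUNB and JUND of the Jun subfamily. All 7 were found among 25270 genes in the matrix, and all 7 had a mean of at least 1 FPKM (fragments per kilobase of transcript, scaled to the mapped fragments of the library), the minimum for a gene to be tested, as did 10600 genes in all. FOSB met it only through the treated libraries, since its value in the solvent control was 0.0692 FPKM.

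The cells were U2OS, an established human osteosarcoma line, treated for 6 h. The control library was from cells given DMSO, the solvent. The other 15 libraries came from cells given CPT, the usual short name of camptothecin, a poison of DNA topoisomerase I, or T4 or T5, compounds known here by code names, which the series presents as acting on alternative polyadenylation. Each compound was used at 0.5, 2, 5, 10 and 20 µM, with 1 library per dose. No genotype other than that of the line is given. The labels do not tell whether each library had a culture of its own, and the p-values below measure no spread among replicates. They rest on the scatter of single libraries around each fit, which may be technical. That scatter also holds any misfit to a straight dose line and, at matched doses, any difference between compounds that changes with dose. In bulk RNA, a response of more cells and a larger response per cell cannot be told apart.

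Fos and Jun proteins carry a basic region that contacts DNA and a leucine zipper through which they pair. The pairs, called activator protein 1 (AP-1), bind the sequence TGACTCA. Jun proteins pair with each other or with Fos proteins, whereas Fos proteins need a Jun partner. FOS, FOSB, JUN and JUNB are immediate early genes, whose mRNA appears within minutes of a growth factor or stress signal without new protein synthesis and is then degraded quickly. FOSL1 (Fra-1), FOSL2 (Fra-2) and JUND are generally more steadily expressed, and FOSL2 and FOSL1 are known for roles in bone-forming cells.

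Of the bone and osteoblast genes looked at, COL1A1 was at 300.6 and SPARC at 226.9 FPKM in DMSO. RUNX2, ALPL and SPP1 were at 2.86, 2.54 and 1.71 FPKM there, and COL1A2, BGLAP, IBSP and SP7 averaged below 0.1 FPKM. Of the mesenchymal genes, VIM, FN1 and THY1 were at 358.2, 128.8 and 49.0 FPKM in DMSO. ENG was at 4.72 FPKM, and NT5E averaged below 0.1 FPKM. The summed level of 6 blood markers lay between 0.0295 and 0.549 FPKM over the libraries. That of 5 epithelial markers lay between 5.49, in DMSO, and 20.6 FPKM, and its part in the results was not tested. Total depth is unknown from FPKM. Steps between low values put the depth of the treated libraries at 0.639 to 0.997 of that of DMSO. The median dose trend of all tested genes was below 0 as deposited, and centring each library on its median raised every dose trend by about 0.45 with CPT, 0.65 with T4 and 0.67 with T5 on the log2 scale. Quantile normalization raised the median trend by 0.21, 0.35 and 0.36.

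The regions before the start sites are shown first, as a description. RefSeq promoter windows (build GRCh38.p14) were found for 6 of the 7 genes, all but FOSL1. The 100 bases before the RefSeq start are shown for FOS, FOSB, JUNB and JUND. The first 3 are of the 4 genes that rose with all compounds, and JUND rose with CPT and T5 but was not called with T4. Capitals mark the core of the cyclic AMP response element (TGACGT, or ACGTCA on the other strand) and the TATA box (TATAAA). JUN, which also rose with all compounds, is not shown, and its 100 bases hold neither. FOSL2, which fell with T4 and T5, is not shown either, and its 100 bases hold TGACGT. FOS is at chr14:75278728-75278827 on the plus strand, FOSB at chr19:45467896-45467995 on the plus strand, JUNB at chr19:12791386-12791485 on the plus strand and JUND at chr19:18281623-18281722 on the minus strand.
FOS: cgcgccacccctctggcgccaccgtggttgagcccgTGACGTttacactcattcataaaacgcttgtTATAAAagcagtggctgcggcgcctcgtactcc
FOSB: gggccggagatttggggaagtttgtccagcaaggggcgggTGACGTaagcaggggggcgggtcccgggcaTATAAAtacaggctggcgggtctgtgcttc
JUNB: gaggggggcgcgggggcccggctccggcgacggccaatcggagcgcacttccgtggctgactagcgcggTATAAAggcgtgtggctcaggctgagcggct
JUND: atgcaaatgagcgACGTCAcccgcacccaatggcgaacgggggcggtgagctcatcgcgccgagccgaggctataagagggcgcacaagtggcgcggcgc

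Searched on both strands, TATAAA was in these 100 bases in 3 of the 6 genes, FOS, FOSB and JUNB, against 5.34% of all 27305 promoters of the same length. It ended 28, 25 and 26 bases from the start, counted to its near edge. TGACGT was in 4 of the 6, FOS, FOSB, FOSL2 and JUND, against 4.43% of all promoters. The AP-1 site TGACTCA was in none of the 6 within 250 bases before the start, against 4.16% of all promoters. Only exact matches were searched, and variants of the site were not. The 100 bases of JUN hold such a similar sequence, TGACATCA, which was not counted. The GC box GGGCGG was in the 100 bases of 2 of the 6, FOSB and JUND, against 31.31%, and the full element TGACGTCA in those of none, against 1.25%. Within 250 bases the GC box was in 5 of the 6, all but JUNB, against 42.31%. The full element was then in JUND alone, against 1.77%. Shares are over all promoters because 7977 of the 10600 tested genes matched a promoter, too few for a share of tested genes. A match describes letters and not a bound site, and the 5 motifs were searched with the expression values known.

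The family's transcripts have few exons. In GENCODE 29, JUN, JUNB and JUND have 1 exon each, as do 1.99% of the 9725 tested genes with a coding transcript there, and the 4 Fos genes have 4 exons each, against a median of 9. The 3′ untranslated region of the transcript used ran from 500 bases in JUNB to 4864 in FOSL2, against a median of 1116. The polyadenylation hexamer AATAAA, the signal at which the 3′ end is cut and tailed, was in the last 50 bases of 5 of the 7, all but JUNB and JUND, and of 64.1% of tested genes. It is shown in capitals for 4 genes that moved in opposite directions with T4, since the series is about compounds that act on poly(A) site choice.
FOS: caagacattgtcAATAAAagcatttaagtt
JUN: cattcttgtcacAATAAAtgtattcaaata
FOSL1: ctaccaaaatggAATAAAaggcttgaagct
FOSL2: agcattttgtagAATAAAatgaattaagat

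JUNB, which rose with T4, has no AATAAA in its 3′ untranslated region. The AU-rich element, a run of ATTTA repeats that marks early gene mRNAs for decay, was counted in the same regions. ATTTA occurred 5 times in FOS, 3 times in FOSB and in JUN, 2 times in JUNB, 9 times in FOSL2 and once in FOSL1 and JUND, against a median of 2. The overlapping nonamer TTATTTATT was present in FOS and in FOSL2 and in 8.4% of tested genes. It is shown in capitals for these, again a gene that rose and a gene that fell with T4 and T5.
FOS: tgtttttaatTTATTTATTaagatggatt
FOSL2: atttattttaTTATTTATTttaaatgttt

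FOS is the founding member and the partner of Jun proteins in the classical dimer. Its mRNA was at 1.13 FPKM in DMSO and at 4.26, 13.8, 20.6, 26.7 and 33.5 FPKM at 0.5, 2, 5, 10 and 20 µM CPT. With T4 the values at the same doses were 3.88, 25.0, 61.7, 113.1 and 153.8 FPKM. With T5 they were 9.41, 50.4, 121.9, 204.8 and 253.8 FPKM. DMSO was the lowest of the 16 libraries, each step in dose was a step up with each compound, and at the top dose T5 was the highest and CPT the lowest. The fitted change from 0 to 20 µM on the log2(FPKM + 1) scale, with the standard error of each fit (6 libraries), was 3.96 ± 0.45 with CPT, 6.51 ± 0.46 with T4 and 6.92 ± 0.71 with T5. Adjusted p by limma (Benjamini-Hochberg over all tested genes) was 0.0105, 0.00121 and 0.00121.

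FOSB encodes a close relative of FOS. From 0.0692 FPKM in DMSO it was at 1.20, 3.65, 6.45, 9.47 and 12.4 FPKM with rising CPT dose. The T4 series read 0.238, 0.893, 2.29, 5.05 and 6.79 FPKM, and the T5 series 0.448, 1.73, 4.14, 5.91 and 6.91 FPKM. Here the place of CPT differed from that for FOS: CPT was highest at each of the 5 doses, while T5 stayed above T4. FOSB rose by 3.63 ± 0.29 with CPT, 3.08 ± 0.24 with T4 and 3.13 ± 0.24 with T5 (adjusted p = 0.00983, 0.00121 and 0.000941, limma). These log2 changes understate the ratio, because the DMSO value lies far below the pseudocount of 1.

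JUNB encodes a Jun protein that is a weaker activator than JUN. Its mRNA was at 4.42 FPKM in DMSO and at 14.3, 39.0, 63.3, 84.0 and 102.3 FPKM with CPT. It was at 12.1, 35.2, 68.6, 131.0 and 161.0 FPKM with T4 and at 14.0, 45.3, 83.1, 176.0 and 189.4 FPKM with T5. At 2 µM the 3 compounds lay between 35.2 and 45.3 FPKM, and at 20 µM between 102.3 and 189.4 FPKM. JUNB rose by 4.17 ± 0.46 with CPT, 5.01 ± 0.30 with T4 and 5.27 ± 0.41 with T5 (adjusted p = 0.0105, 0.00121 and 0.000941, limma). GENCODE lists HOOK2 as overlapping JUNB, and ERCC1 as overlapping FOSB, on the opposite strand, and the labels do not say whether strand was kept. HOOK2 was at 1.66 FPKM in DMSO and at 1.18 to 1.58 FPKM at 20 µM, and ERCC1 was at 43.3 and at 34.5 to 41.2 FPKM, and their part in the JUNB and FOSB values was not tested.

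JUN, the main activating partner in AP-1, was already at 26.8 FPKM in DMSO. It was at 29.03, 35.7, 51.9, 69.5 and 82.1 FPKM with CPT, at 41.2, 62.5, 73.4, 79.4 and 91.8 FPKM with T4 and at 46.7, 72.4, 96.3, 121.5 and 98.6 FPKM with T5. Every treated library was above DMSO, and the 10 µM T5 library was above the 20 µM one. JUN rose by 1.70 ± 0.15 with CPT, 1.66 ± 0.20 with T4 and 1.95 ± 0.32 with T5 (adjusted p = 0.0105, 0.00171 and 0.00392, limma). With CPT most of the distance lay above 2 µM, while with T4 the 2 µM library was already at 62.5 FPKM.

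**Figure D1:**
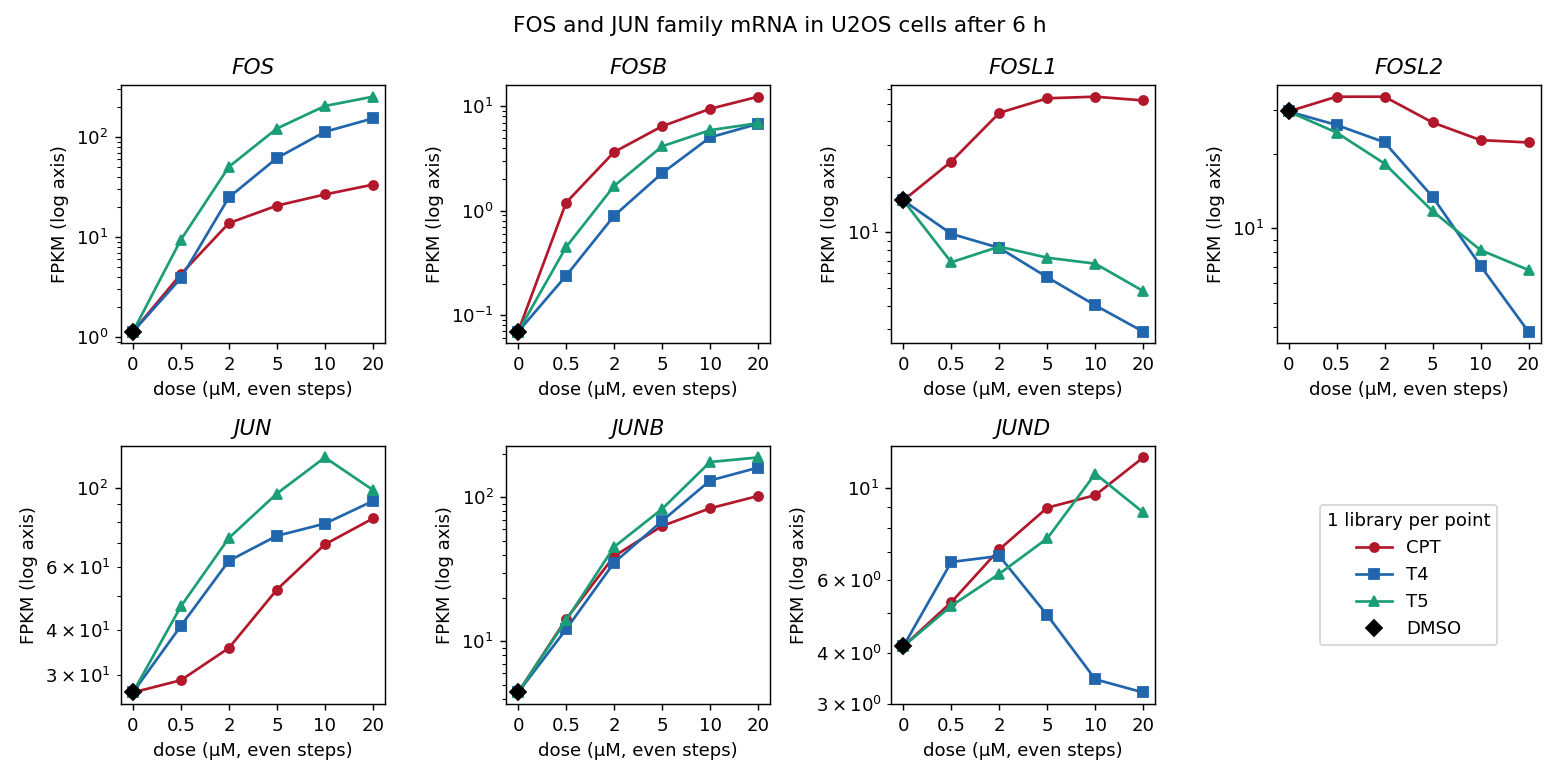
FPKM (log axis) of the 7 FOS and JUN family genes against dose in µM, drawn in even steps, with 1 library per point: the DMSO library is the diamond shared by the CPT, T4 and T5 lines. FOS, FOSB, JUN and JUNB are above DMSO in all 15 treated libraries, FOSL1 divides into a high CPT line and low T4 and T5 lines, and JUND with T4 returns below its DMSO value of 4.14.

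FOSL1, which lacks the strong activation domain of FOS, divided the compounds. It was at 14.9 FPKM in DMSO and at 24.2, 44.5, 53.4, 54.5 and 52.0 FPKM with CPT. With T4 it was at 9.82, 8.25, 5.71, 4.02 and 2.89 FPKM, and with T5 at 6.89, 8.38, 7.29, 6.77 and 4.80 FPKM. All 5 CPT libraries were above DMSO and all 10 libraries with T4 or T5 were below it. FOSL1 rose by 1.77 ± 0.35 with CPT (adjusted p = 0.0134, limma) and fell by 1.95 ± 0.19 with T4 (adjusted p = 0.00124, limma). Its fall with T5, -1.04 ± 0.32, passed narrowly (adjusted p = 0.0333, limma). That call was lost with median centring, where the change was -0.37, and with quantile normalization, where it was -0.49, and without the 2, 5, 10 or 20 µM library in turn, where values lay between -0.93 and -1.13.

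FOSL2 was the most abundant Fos gene in DMSO, at 29.5 FPKM. With CPT it was at 33.9 FPKM at 0.5 and at 2 µM and then at 26.7, 22.7 and 22.2 FPKM. With T4 it was at 26.1, 22.2, 13.4, 7.06 and 3.83 FPKM, and with T5 at 24.3, 18.2, 11.7, 8.16 and 6.79 FPKM. Each step in T4 or T5 dose was a step down. FOSL2 fell by 2.67 ± 0.34 with T4 and by 2.08 ± 0.14 with T5 (adjusted p = 0.00214 and 0.000869, limma). The CPT value of -0.56 ± 0.19 did not pass the test (adjusted p = 0.054, limma), and reached -0.11 with median centring, but did pass without the 2 µM library (-0.53), with quantile normalization (-0.61) and over the treated libraries alone (-0.86).

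JUND, often described as a brake on growth, had T4 values that went down and T5 values that went up over most of the dose range, though the difference between them did not pass the tests given further on. It was at 4.14 FPKM in DMSO and at 5.30, 7.11, 8.98, 9.63 and 11.9 FPKM with CPT. T5 gave 5.19, 6.21, 7.56, 10.9 and 8.74 FPKM. T4 gave 6.63, 6.86, 4.93, 3.45 and 3.20 FPKM, so that its 2 lowest doses were the highest of that series and its 2 highest doses were below DMSO. JUND rose by 1.30 ± 0.16 with CPT and by 1.08 ± 0.22 with T5 (adjusted p = 0.0105 and 0.00766, limma). A straight T4 trend, at -0.57 ± 0.37, missed the threshold (adjusted p = 0.236, limma) and its sign turned with median centring (0.07) and quantile normalization (0.17). Over the T4 libraries alone, without DMSO, it was -1.24 ± 0.28 and passed (adjusted p = 0.0153, limma).

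In all, 6 of the 7 genes rose with CPT dose and none fell, while 17.9% of all tested genes rose and 25.8% fell. With T4, 4 rose and 2 fell, while 14.5% of tested genes rose and 32.4% fell. With T5, 5 rose and 2 fell, while 18.2% rose and 34.5% fell. The median change of the 7 was 1.77 with CPT, 1.66 with T4 and 1.95 with T5, against -0.14, -0.27 and -0.29 for all tested genes. The 3 trends share the DMSO library. With median centring 3572, 4293 and 4388 of the tested genes rose with CPT, T4 and T5 and 1643, 1847 and 1992 fell. With quantile normalization 2341, 2806 and 3013 rose and 1910, 2101 and 2344 fell. Under both the family counts of genes that rose stayed at 6, 4 and 5. Without the 10 µM CPT library limma called 1 gene of all tested (4448 at an unadjusted p below 0.05) and none of the 7. The 6 genes that rose with CPT then lay just above the threshold. FOSL1 was at an adjusted p of 0.0546 and the others at 0.0537 (limma). FOS still read 3.98 and JUNB 4.17. On a linear dose scale limma called few genes of all 10600: 0 with CPT (1561 at an unadjusted p below 0.05), 99 rising and 1328 falling with T4, and 23 rising and 545 falling with T5. None of the 7 then passed as rising with CPT or T5 and 1, FOSB, with T4. The fitted changes stayed large, at 3.09, 5.31 and 5.40 for FOS and 3.26, 4.14 and 4.27 for JUNB with CPT, T4 and T5. On that scale FOSL2 still fell with T4 and T5 (-2.70 and -1.88) and FOSL1 with T4 (-1.77).

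**Figure D2:**
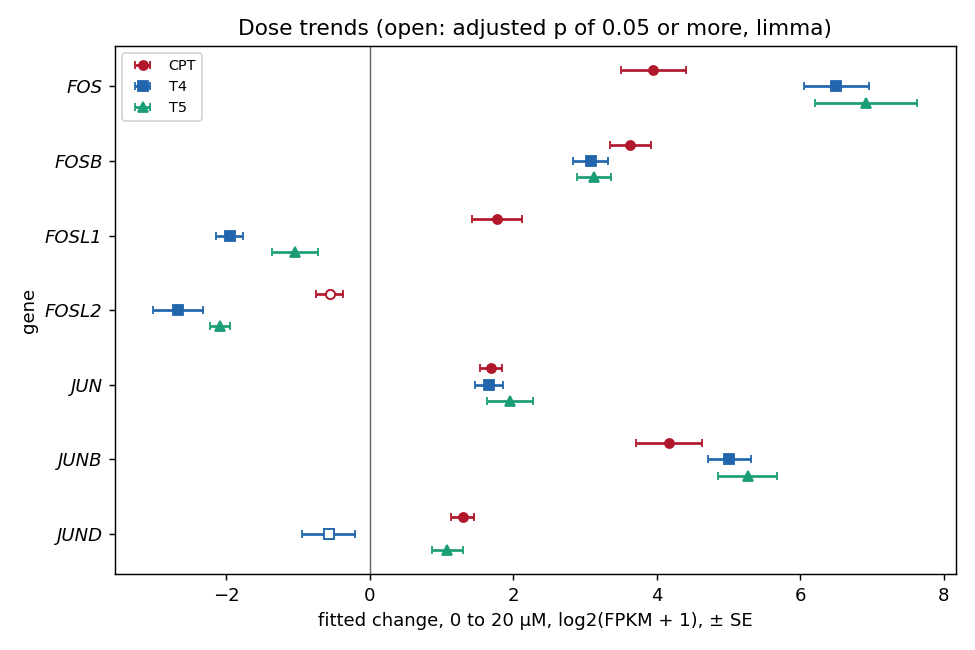
Fitted change from 0 to 20 µM in log2(FPKM + 1), with standard errors over 6 libraries, for each gene and compound. Filled marks passed an adjusted p of 0.05 (limma) and open marks did not. FOS, FOSB, JUN and JUNB lie right of 0 with every compound, FOSL1 lies at 1.77 with CPT and at -1.95 and -1.04 with T4 and T5, and FOSL2 lies left of 0.

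At the lowest dose there was 1 library on each side, so ratios have no replicate check. FOS and JUNB were at least 2-fold above DMSO on the log2(FPKM + 1) scale already at 0.5 µM of each compound. With T4 these 2 were the family's count at that dose, where 0.368% of tested genes were at least 2-fold higher and 1.03% lower. With T5, FOS and JUNB were higher and FOSL1 lower, against 1.21% and 4.41% of tested genes. With CPT, FOS, JUNB and FOSB were higher and none lower, against 2.45% and 6.81%. At 20 µM, 6 of the 7 were at least 2-fold higher with CPT, all but FOSL2, against 6.12% of tested genes, and none was lower, against 21%. FOS, FOSB, JUN and JUNB were higher and FOSL1 and FOSL2 lower with 20 µM T4, against 1.2% and 22.9%, and with 20 µM T5, against 2.44% and 26.5%.

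The make-up of Fos mRNA differed between compounds, and FPKM, being per length, allows the genes to be summed. In DMSO the 4 Fos genes summed to 45.7 FPKM, of which FOSL2 made 64.7%, FOSL1 32.7%, FOS 2.47% and FOSB 0.151%. At 20 µM CPT they summed to 120.0 FPKM, with FOSL1 at 43.4%, FOS at 27.9%, FOSL2 at 18.5% and FOSB at 10.3%. At 20 µM T4 the sum was 167.3 FPKM and FOS made 91.9% of it, and at 20 µM T5 it was 272.3 FPKM with 93.2% FOS. FOSL1 was the leading Fos mRNA from 2 µM CPT upwards, and FOS from 2 µM T4 or T5 upwards. These shares are of 1 library each and were not tested.

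Jun mRNA shifted from JUN to JUNB with all 3 compounds. JUN made 75.8% of the Jun sum of 35.4 FPKM in DMSO, JUNB 12.5% and JUND 11.7%. At 20 µM, JUNB made 52.1% with CPT, 62.9% with T4 and 63.8% with T5, and JUND made 6.05%, 1.25% and 2.95%. The Jun sum was then 196.2, 256.0 and 296.8 FPKM. Fos exceeded Jun mRNA 1.29-fold in DMSO and was at 0.612 of it with 20 µM CPT, 0.654 with T4 and 0.917 with T5. The whole family summed to 81.1 FPKM in DMSO and to 316.2, 423.3 and 569.1 FPKM at 20 µM CPT, T4 and T5.

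**Figure D3:**
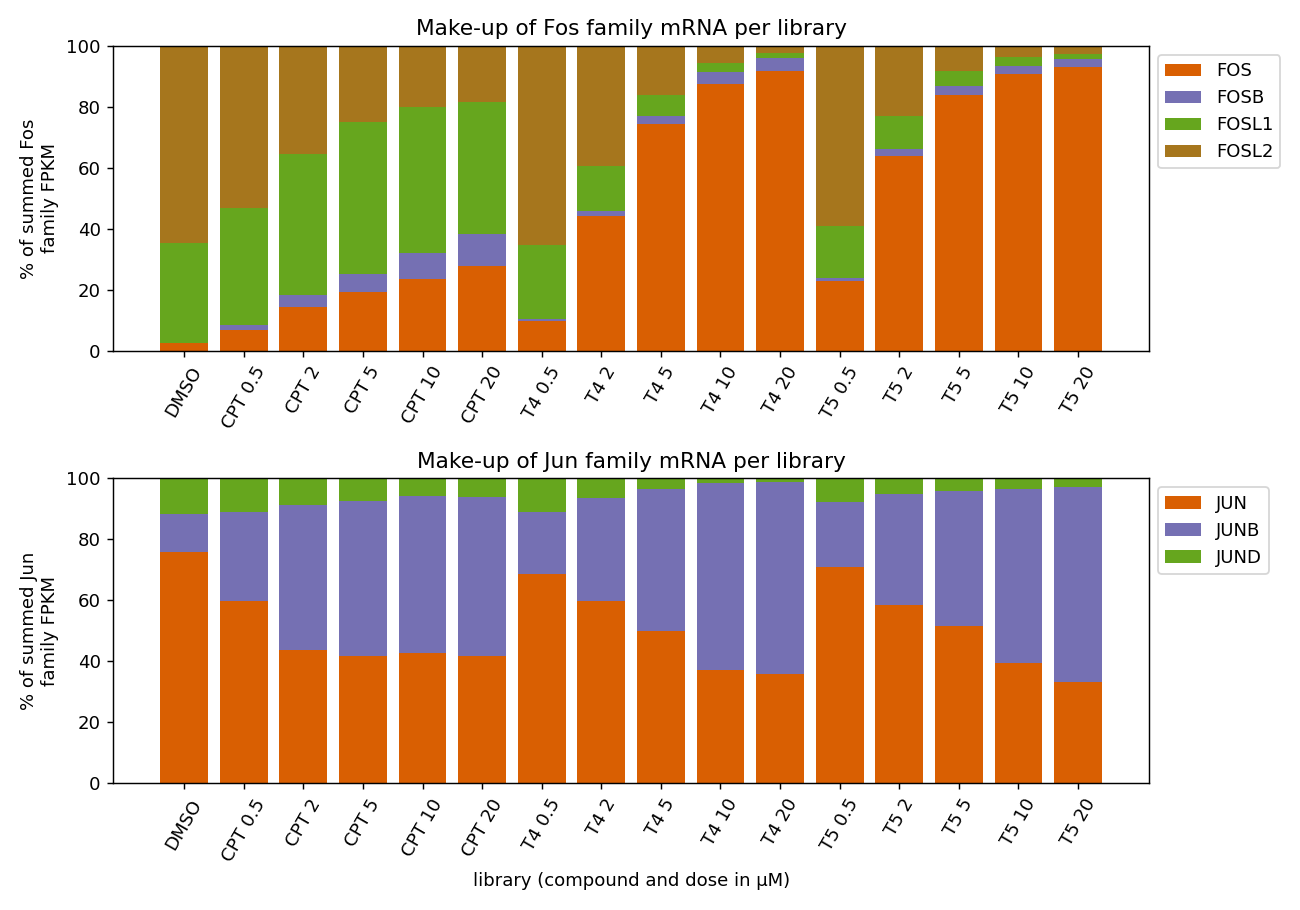
Share, in percent, of each gene in the summed FPKM of the Fos genes (top) and of the Jun genes (bottom), with 1 bar per library, labelled by compound and dose in µM. FOS grows from 2.47% in DMSO to 91.9% and 93.2% of Fos mRNA at 20 µM T4 and T5 but to 27.9% with CPT, where FOSL1 holds 43.4%, and JUNB overtakes JUN with every compound.

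T4 and T5 were then compared over the 5 shared doses, with dose as a block. T4 was lower than T5 for 4 of the 7 genes and higher for none, while 6.05% of all tested genes were lower and 26.5% higher with T4. Scaling turned that balance over all genes, to 1166 higher and 2622 lower with median centring and 1351 and 1067 with quantile normalization, but in the family 4 and 3 genes were lower and none higher. FOS was lower with T4 in 5 of 5 doses, with a mean of -0.92 (95% interval -1.05 to -0.80, adjusted p = 0.00304, limma), and JUNB, also in 5 of 5, at -0.30 (-0.39 to -0.20, adjusted p = 0.00516). JUN and FOSB differed by -0.30 and -0.32 (adjusted p = 0.0224 and 0.0384, limma). The JUN call was lost without the 2 µM or the 5 µM libraries (-0.32 and -0.27), and the FOSB call without any of the 4 lower doses in turn, when values lay between -0.24 and -0.35. FOSL2 and FOSL1 did not pass, with differences of -0.07 (-0.38 to 0.25) and -0.22 (-0.58 to 0.15), and nor did JUND at -0.55 (-1.16 to 0.07).

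The slopes of T4 and T5 over dose were compared as well, with an intercept for each compound. No gene of the 10600 passed (0%), while 419 had an unadjusted p below 0.05 by limma, among them FOSL1 and JUND. The slope of JUND differed by -1.83 ± 0.31 (T4 minus T5, from 0.5 to 20 µM), lower than for all but 0.2% of tested genes, and failed the correction (adjusted p = 0.857, limma). That of FOSL1 differed by -1.10 ± 0.30 and failed it too (adjusted p = 1, limma).

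Against CPT the family divided by gene. T4 was higher than CPT at matched doses for FOS and JUN and lower for FOSB, FOSL1 and FOSL2, that is for 2 and 3 of the 7, while 28.3% of all tested genes were higher and 36.9% lower. T5 was higher for FOS, JUN and JUNB and lower for FOSB, FOSL1 and FOSL2, while 25% of tested genes were higher and 37.6% lower. Median centring gave 3400 higher and 3008 lower for T4 over all genes and 3986 and 2521 for T5, quantile normalization 3432 and 3137, and 3623 and 3064, and neither moved a call in the family. Both comparisons use the same 5 CPT libraries. Their background is high, so the counts say less than the sizes.

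FOSL1 differed from CPT by -2.76 ± 0.36 with T4 and by -2.54 ± 0.21 with T5 (adjusted p = 0.000995 and 0.000235, limma), and lower in 5 of 5 doses each. Of all tested genes, 0.1% and 0.2% had a difference as low. FOS was higher by 1.29 ± 0.33 with T4, where the 0.5 µM value was below that of CPT, and by 2.21 ± 0.29 with T5 (adjusted p = 0.0132 and 0.000942, limma). FOSB was lower, at -0.97 ± 0.11 and -0.65 ± 0.07 (adjusted p = 0.000685 and 0.000603, limma) and so was FOSL2, at -1.14 ± 0.27 and -1.08 ± 0.16 (adjusted p = 0.00974 and 0.00148, limma). JUN was higher by 0.42 ± 0.10 and 0.72 ± 0.10 (adjusted p = 0.00843 and 0.00142, limma).

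JUNB and JUND differed less. JUNB was higher than with CPT by 0.50 ± 0.16 with T5 (adjusted p = 0.0325, limma), a call lost without the 2, 5, 10 or 20 µM libraries in turn, when values lay between 0.36 and 0.58. With T4 its difference of 0.21 (-0.15 to 0.57) did not pass. JUND stood at -0.68 (-1.36 to 0.002) with T4 and at -0.13 (-0.36 to 0.09) with T5, and neither passed, although T4 did so without the 0.5 µM libraries (-0.92).

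**Figure D4:**
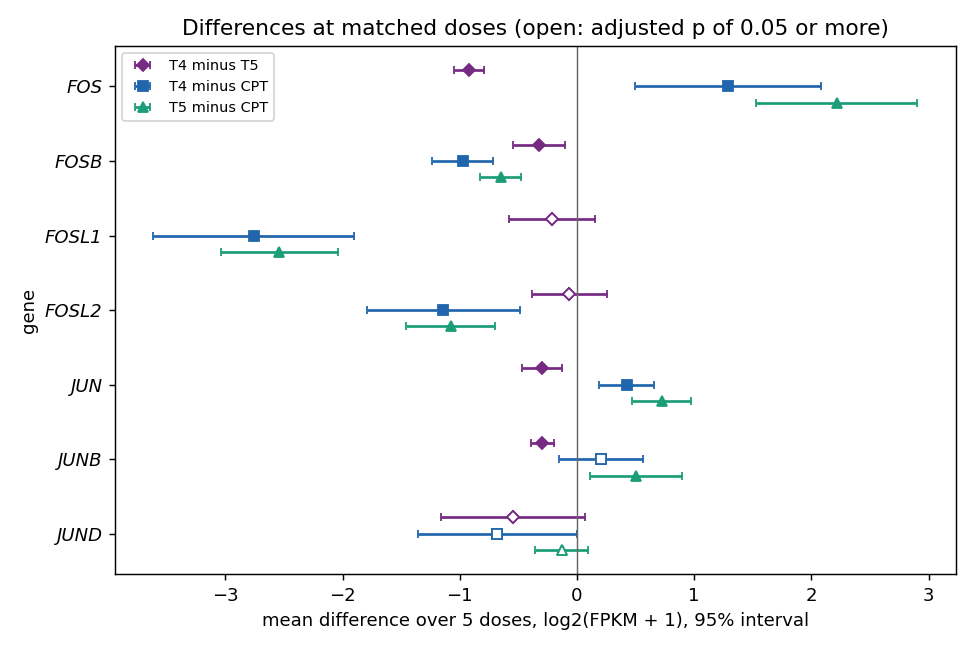
Mean difference in log2(FPKM + 1) over the 5 shared doses for T4 minus T5, T4 minus CPT and T5 minus CPT, with 95% intervals from limma over 10 libraries. Open marks did not pass an adjusted p of 0.05. FOSL1 stands furthest from 0, at -2.76 and -2.54 against CPT, and FOS is the gene furthest to the right, at 1.29 and 2.21.

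In dose slope, T4 was below CPT for FOSL1 (-2.56 ± 0.36), JUND (-2.01 ± 0.25) and FOSL2 (-1.88 ± 0.35), with adjusted p by limma of 0.00565, 0.00378 and 0.0168. This made 3 of 7 genes lower and none higher, while 6.61% of tested genes were lower and 1.16% higher. T5 was below CPT for FOSL2 alone (-1.11 ± 0.19, adjusted p = 0.0108, limma), while 6.19% of tested genes were lower and 2.54% higher. The slope of FOS was larger by 2.37 ± 0.66 with T4 and by 2.01 ± 0.70 with T5 and did not pass (adjusted p = 0.0654 and 0.115, limma). It passed with both when DMSO was added as a common start, at 1.82 and 2.76.

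Other genes with the most similar pattern were listed for each member by the correlation of log2(FPKM + 1) over all 16 libraries, which share depth and compounds, so that r is a description. FOS was most like ARC, IER2 and EGR1, early genes themselves (Pearson r of 0.988, 0.985 and 0.981). JUNB was most like NFKBIZ (0.982), JUN like EGR2 (0.963) and FOSB like GGT7 (0.989). FOSL1 was most like C11orf68 (0.991), which lies 16.2 kb from it on chromosome 11 in GRCh38, and FOSL2 like TBC1D10B (0.990). JUND had no gene as near, with SOX17 first at 0.911. Within the family, r was 0.943 between FOS and JUN, 0.94 between FOS and JUNB, and -0.862 between FOS and FOSL2. It was lower between FOS and FOSB, at 0.692, and between FOSB and JUN, at 0.674.

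The counts for lists of related genes are read against the shares of all tested genes: 17.9% rising and 25.8% falling with CPT, 14.5% and 32.4% with T4, and 18.2% and 34.5% with T5. Counts under another scaling are to be read against the counts of all tested genes under that scaling, given above. The lists were chosen with earlier results of these data known, so their counts are a description. Of 13 other basic leucine zipper partners tested, 3 rose and 4 fell with CPT, and 1 rose and 5 fell with T4 and with T5, which is near those shares, with medians of -0.50, -0.49 and -0.52. Median centring made this 5 and 3 with CPT, 2 and 2 with T4 and 2 and 1 with T5, with medians of -0.05, 0.15 and 0.15, and quantile normalization 2 and 3 with T4 and 1 and 2 with T5. ATF2, a Jun partner that binds the cyclic AMP response element, fell with CPT, T4 and T5 (-1.97, -1.13 and -1.10). NFE2L2, the activator of antioxidant genes, fell too (-2.29 ± 0.20, -2.75 ± 0.33 and -2.61 ± 0.56). MAFF, a small Maf protein, rose by 2.05 ± 0.48 with CPT, from 5.87 to 31.8 FPKM, and its values of 0.24 and 0.29 with T4 and T5 did not pass. ATF3, a stress-induced partner, read 2.15 ± 0.72, 0.34 ± 0.80 and 0.96 ± 0.87 and was not called (adjusted p = 0.0522, 0.753 and 0.38, limma).

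The MAP kinase cascade holds the kinases that activate Fos and Jun proteins. Of its 15 tested genes, 2 rose and 4 fell with CPT, 2 rose and 6 fell with T4, and 4 rose and 7 fell with T5, again near the shares of all tested genes, with medians of -0.21, -0.57 and -0.65. Median centring turned these medians to 0.24, 0.08 and 0.02 and the counts to 4 and 4, 6 and 5, and 5 and 4, and quantile normalization gave 3 and 3, 3 and 5, and 4 and 4. MAP2K4, a kinase that activates JNK, fell with CPT, T4 and T5 (-2.45, -1.97 and -2.27), as did MAPK14, or p38 alpha (-2.14, -1.70 and -1.93). MAP2K3, which activates p38, fell with T4 and T5 (-1.86 and -2.06) and was at -0.21 with CPT, not called. RPS6KA1, a kinase downstream of ERK, fell with all 3 (-1.14, -1.07 and -1.67). The genes that rose with every compound, named after their values were seen, were MAPK3, or ERK1 (0.80, 0.74 and 0.86), and MAPK9, or JNK2 (0.56, 0.80 and 0.85).

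Serum response factor and its cofactors drive FOS, FOSB and JUNB transcription. The list of 8 tested genes also holds MEF2A and MEF2D, which are not cofactors of serum response factor. Of the 8, 2 rose and 2 fell with CPT, and none rose and 4 fell with T4 and with T5. Beside this, 32.4% and 34.5% of all tested genes fell with T4 and T5. The medians of the list were -0.52, -0.58 and -0.74. Median centring moved these medians to -0.07, 0.06 and -0.07 and the counts to 3 and 1, 3 and 2, and 3 and 3. Quantile normalization gave 2 and 1 with CPT and 0 and 2 with T4 and with T5. SRF itself and ELK1, named after their values were seen, were the 2 that rose with CPT (0.66 and 0.58), and did not pass with T4 (0.16 and 0.32) or T5 (0.11 and 0.50). MKL1, an actin-regulated cofactor, fell with CPT, T4 and T5 (-2.42, -2.67 and -2.60), as did its relative MKL2 (-1.90, -1.61 and -1.88). MEF2D fell with T4 and T5 (-1.46 and -1.51), and MEF2A was called with none of the compounds, at -1.34, -0.48 and -0.63.

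Of 10 tested genes that act in the turnover of AP-1 proteins, none rose with any compound and 1, 3 and 5 fell with CPT, T4 and T5, beside 25.8%, 32.4% and 34.5% of all tested genes, with medians of -0.73, -0.41 and -0.67. With median centring 2 rose with each and 1, 1 and 3 fell, with medians of -0.28, 0.23 and 0.005, and with quantile normalization 1 rose and 4 fell with T4 and with T5. RFWD2 (COP1), a ubiquitin ligase for JUN, fell with T4 and T5, from 16.2 to 6.32 and 5.42 FPKM at 20 µM, and its CPT value of -1.56 ± 0.83 was not called. GSK3B, whose phosphorylation marks JUN for removal, fell with T4 and T5 (-1.38 and -1.41), and its CPT value of -2.07 ± 0.81 was not called. FBXW7, the ligase subunit that reads that mark, fell by 1.19 with T5, and was at -0.91 and -1.08 with CPT and T4. CSNK2A1, a catalytic subunit of casein kinase 2, fell with CPT, T4 and T5 (-1.34, -0.97 and -1.15).

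Among 9 tested genes of early mRNA decay, 5 rose and 1 fell with CPT, and 2 rose and 1 fell with T4 and with T5, beside 17.9%, 14.5% and 18.2% of all tested genes that rose. The T4 and T5 counts are near those shares. The list had medians of 1.40, 0.33 and 0.70. Median centring gave 6 and 0, 5 and 0, and 7 and 1, and quantile normalization 4 and 0 with CPT. ZFP36, which binds AU-rich elements and promotes decay of FOS mRNA, rose by 1.93 ± 0.20, 2.87 ± 0.24 and 3.36 ± 0.18, and its paralog ZFP36L1 by 1.78, 1.69 and 2.45. TOB1, an adaptor of the deadenylase complex, rose by 3.36 ± 0.62 with CPT, from 4.77 to 77.7 FPKM, and was not called with T4 or T5 (0.33 ± 0.89 and 0.70 ± 1.06). BTG2, of the same family, was at 4.45 FPKM in DMSO and at 52.7, 6.55 and 9.91 FPKM at 20 µM CPT, T4 and T5, and passed with none of them.

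Of 23 tested genes named as AP-1 targets in other systems, 12 rose and 1 fell with CPT, 10 rose and 2 fell with T4, and 12 rose and 1 fell with T5, beside 17.9%, 14.5% and 18.2% of all tested genes that rose and 25.8%, 32.4% and 34.5% that fell. Their medians were 0.86, 0.46 and 0.73, against -0.14, -0.27 and -0.29 for all tested genes. Both scalings raised the median trend of all tested genes too, so list medians that stayed positive there say little. Median centring gave 17 and 1 with CPT, 15 and 1 with T4 and 18 and 1 with T5. Of all 10600 tested genes, 3572, 4293 and 4388 then rose and 1643, 1847 and 1992 fell. Quantile normalization gave 13 and 2, 11 and 1, and 13 and 1, while 2341, 2806 and 3013 of all tested genes rose and 1910, 2101 and 2344 fell. The chemokine CXCL8 rose by 4.32 ± 0.98, 5.68 ± 0.41 and 6.04 ± 0.37, and the growth factor HBEGF by 1.89, 1.77 and 2.30. IL11, a cytokine, rose by 2.56 ± 0.32 with T4 and 4.12 ± 0.38 with T5, from 8.93 FPKM to 40.2 and 114.2 FPKM, and its CPT value of 1.69 ± 0.62 was not called. EZR, which links the membrane to actin, fell with CPT, T4 and T5 (-2.16, -1.73 and -2.25). This list too was chosen with earlier results of these data known, so its counts are no independent test of AP-1 activity. Whether any of these genes was bound by AP-1 was not measured.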

How the data were processed

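Gene expression was measured by RNA sequencing in 16 libraries of U2OS cells. The values are FPKM, deposited by the authors in 1 matrix whose headers name the libraries. Per the submitters' processing notes, the tools were GSNAP and Cufflinks and the build hg19 or GRCh37. Versions, annotation, strand setting and filters were not given in the sources used here. Left out were 2 inner header lines, 1 incomplete line and 220 identical repeats. FPKM summed to 238669 to 285143 per library. Total depth is unknown, and relative depth was read from the steps of values below 0.2 FPKM (smoothing width 0.02 log2 units).

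Here, log2(FPKM + 1) of genes with a mean of at least 1 FPKM was fitted with limma 3.58.1 in R 4.3.3, letting the variance follow the mean. Tests were 2-sided, and p was adjusted by Benjamini-Hochberg across every tested gene, with calls at 0.05. Dose trends used DMSO and 5 doses on log2(1 + dose / 0.5 µM), scaled to 0 to 20 µM. Matched comparisons used dose as a block. Slope differences used an intercept per compound and were scaled to 0.5 to 20 µM. The fits were tested on simulated data. Plots were made with matplotlib 3.10.9 and summaries with pandas 2.3.3. Alternatives were another pseudocount (0.1), no filter, 2 other dose scales, 2 other scalings, other model terms and leaving out each dose.

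Named were all 7 members, up to 4 genes per list with the largest absolute change in any trend, and the 3 genes most like each member. The members and lists were chosen with earlier results of these data known. Promoters are RefSeq's and transcripts GENCODE's (release 29, the principal coding transcript), matched by symbol. Those sequences are of GRCh38, and the processing notes name hg19 and GRCh37, so no coordinate was carried between builds.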

Additional observations from a re-analysis of the deposited data

Results flagged for a closer look

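Dose slopes that differed between compounds, by a test of the difference itself with limma over 10 libraries, were found for FOSL1, FOSL2 and JUND. FOSL1 differed by -2.561 (adjusted p = 0.00565), JUND by -2.007 (adjusted p = 0.00378) and FOSL2 by -1.881 (adjusted p = 0.0168), each T4 minus CPT from 0.5 to 20 µM on the log2(FPKM + 1) scale. FOSL2 also differed by -1.105 between T5 and CPT (adjusted p = 0.0108, limma). Each condition held 1 library, so none was set against replicates of its own condition.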

How the results depend on the processing

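Among values of single genes under another setting, 466 kept their direction and their side of the threshold, 55 kept the direction and lost the call, 11 gained one and 14 changed sign. For most of the lost or gained calls the cause was not tested.

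Counts of family genes called moved as follows. On a linear dose scale, 0 rose with CPT (6 as reported), 1 with T4 (4) and 0 with T5 (5), where limma called 0, 99 and 23 rising among all 10600 tested genes and the FOS changes stayed at 3.09, 5.31 and 5.40. The count that fell with CPT was 1 with quantile normalization or treated libraries alone (0 as reported). The count that fell with T5 was 1 in place of 2 on a linear dose scale, with median centring, with quantile normalization, with no filter and over treated libraries alone. With no dose block, matched counts were 0 lower for T4 against T5, and 0 higher for T4 and for T5 against CPT. Over all genes that setting gave 0 called for T4 against T5 (158 at an unadjusted p below 0.05, limma), and 1783 and 1316 higher for T4 and T5 against CPT. With no filter, 2 were lower for T4 against T5. A common intercept with DMSO gave 1 larger slope for T4 against CPT, and 2 larger and 3 smaller for T5 against CPT. Calls over all genes grew too, from 123 larger and 701 smaller to 1791 and 3006 for T4, and from 269 and 656 to 1042 and 2731 for T5.

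Leaving out each dose in turn, 0 to 6 rose and 0 to 1 fell with CPT, 4 to 4 rose and 2 to 2 fell with T4, and 5 to 5 rose and 1 to 2 fell with T5. At matched doses, 2 to 4 were lower and 0 higher for T4 against T5. For T4 against CPT 2 were higher and 3 to 4 lower, and for T5 against CPT 2 to 3 higher and 3 lower.

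Sign changes concerned values that were not called as reported, and 2 of them passed with the other sign under the common intercept. With a common intercept, slope differences were -0.941 for FOS and -0.304 for FOSB (T4 minus T5), -1.022 for FOSB (passed, adjusted p = 0.00391, limma) and 0.375 for JUN (T4 minus CPT), and 0.718 for JUN (T5 minus CPT; passed, adjusted p = 0.0176, limma). FOSB (T5 minus CPT) was 0.074 with median centring, 0.086 with quantile normalization and 0.503 with a pseudocount of 0.1, and JUNB (T4 minus T5) 0.156 with quantile normalization. The JUND trend with T4 was 0.074 and 0.172, and its matched T5 minus CPT difference 0.055 and 0.035, with median centring and quantile normalization. Leaving out each dose, the matched FOSL2 difference (T4 minus T5) lay between -0.15 and 0.091, the latter without 20 µM. The labels number no replicates, and the pairing in these data is by dose, as in the matched comparisons. FPKM gives no counting error, so differences in low values such as FOSB in DMSO have no known precision.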
